A study of Macaca fascicularis with 86 samples.

Results

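Primitive blood genes are described here in gastrulating embryos of the crab-eating macaque (Macaca fascicularis). The 6 genes are HBZ, TAL1, LMO2, GATA1, RUNX1 and ETV2. They were chosen by name, as 1 embryonic globin and 5 transcription regulators of early blood, out of 17023 genes in the deposited expression table. All 6 genes passed the filter for testing, a level of at least 1 TPM in at least 10 regions, as did 15216 genes in all. TPM, the unit of the table, is a share of the reads scaled by transcript length, so levels of different genes can be compared within a region.

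The samples were small areas cut by laser from cryosections, each of 5 to 50 cells, and their polyadenylated RNA was sequenced by the Geo-seq method. The 15 regions of E18 embryo 1 came from 4 sections, the 35 regions of E18 embryo 2 from 6 sections, and the 36 regions of the E20 embryo from 7 sections. No treatment, genotype or sex is labelled, and each region is labelled only by stage, embryo, section and sector. The direction in which sections and sectors are numbered is not labelled, nor is the tissue of a sector.

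The first blood cells of a mammal form in the yolk sac, from mesoderm that also gives the first endothelium. They are large primitive red cells, which make embryonic globin chains. ETV2 acts early and briefly, turning mesoderm towards endothelium and blood. TAL1, LMO2 and GATA1 then work as 1 complex on DNA: TAL1 binds E-box motifs, GATA1 binds GATA motifs, and LMO2 bridges them through LDB1. RUNX1 is needed for the later, definitive blood that arises from hemogenic endothelium. HBZ encodes zeta-globin, the alpha-type chain of embryonic haemoglobin and the product of the finished primitive red cell.

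TPM keeps no read counts, so the depth of each region is unknown, a gene at 0 is written as listed at 0, and no counting interval is given. All 86 regions held ACTB, GAPDH and EEF1A1, and 6 had HPRT1 at 0. Genes at 1 TPM or more numbered a median of 10564 per region in E18 embryo 1, 12186 in E18 embryo 2, 8452 in sections 1 to 5 of the E20 embryo and 10522 in its sections 6 and 7. The 2 sets of E20 sections also differed in tissue. Yolk sac endoderm genes (such as AFP, APOA1 and TTR) summed to between 93.0 and 160418 TPM in the 28 regions of sections 1 to 5. Their sum was 6.01 to 157 TPM in the 8 regions of sections 6 and 7, 6.50 to 6078 in E18 embryo 1 and 13.6 to 301 in E18 embryo 2. In bulk samples of this kind, fewer cells of a type and less RNA per cell cannot be told apart.

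Globin and progenitor factors were spread very differently over the embryos. HBZ stood at 1 TPM or more in 30 of 86 regions, and 28 of those 30 also held at least 1 of the 5 factors at that level. Factors without HBZ were found in 54 regions, 41 of them with TAL1 or LMO2, and 2 regions of E18 embryo 1 held none of the 6 genes. All 15 regions of E18 embryo 1 lacked HBZ at that level, and 13 of them held a factor. In E18 embryo 2, 4 of 35 regions held HBZ and 31 held factors only. In the E20 embryo, HBZ reached 1 TPM in 25 of 28 regions of sections 1 to 5 and in 1 of 8 regions of sections 6 and 7. The factors-only regions of those sections numbered 3 and 7.

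The factors were counted separately in regions with and without globin. Among the 30 regions with HBZ, LMO2 was at 1 TPM or more in 28, TAL1 in 17, GATA1 in 13, ETV2 in 9 and RUNX1 in 5. Among the 56 regions without it, ETV2 was at that level in 38, LMO2 in 35, TAL1 in 23, RUNX1 in 13 and GATA1 in 10. These counts mix stages and embryos, were not tested, and depend on the level asked for. At 5 TPM, 22 regions held HBZ and 25 held factors only, and at 10 TPM both numbers were 16.

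**Figure D1:**
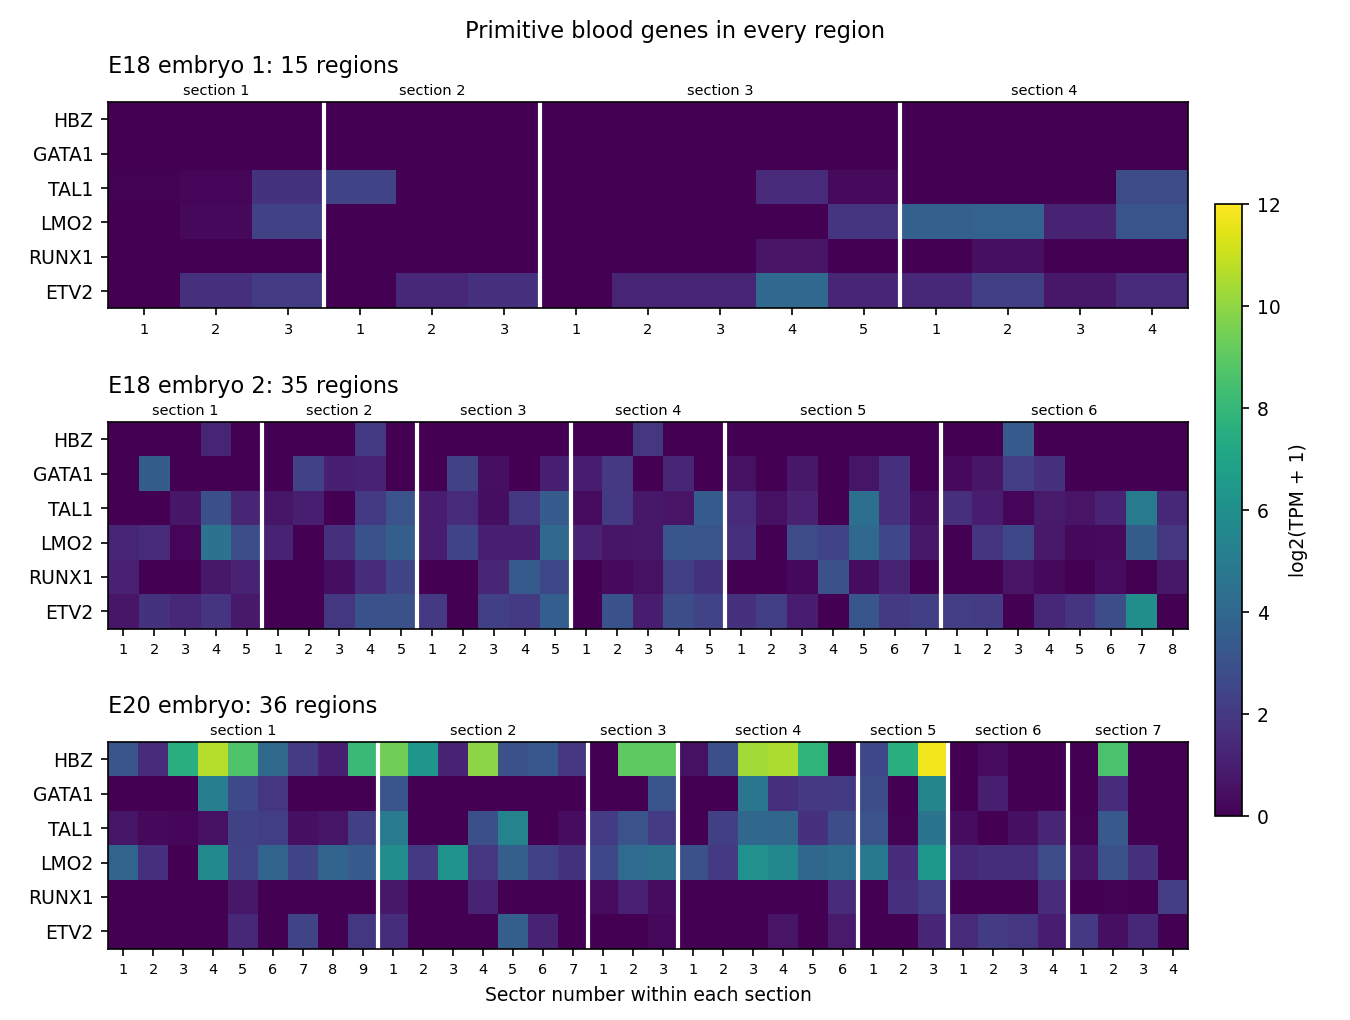
Levels of the 6 genes in all 86 regions, as log2(TPM + 1) in colour, with 1 row per gene and 1 column per region, ordered by section and sector in a panel for each embryo. HBZ is at 0 in all 15 regions of E18 embryo 1, present in 4 of 35 regions of E18 embryo 2, and at 1 TPM or more in 26 of 36 E20 regions, mostly in sections 1 to 5.

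HBZ was rare at E18. It was listed at 0 in 15 of 15 regions of E18 embryo 1 and in 31 of 35 regions of E18 embryo 2. In the other 4 regions it stood at 1.39 TPM in sector 4 of section 1, 3.10 in sector 4 of section 2, 2.76 in sector 3 of section 4 and 9.93 in sector 3 of section 6. These 4 regions lay in 4 different sections and were each the only region of their section with HBZ. Sector 4 of section 2 also held all 5 factors, TAL1 at 3.13 TPM, LMO2 at 7.05, GATA1 at 1.23, RUNX1 at 1.89 and ETV2 at 7.14. Sector 3 of section 4 held none of the 5 factors at 1 TPM.

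At E20, HBZ ran from 0 to 3380 TPM over 36 regions with a median of 7.36. In section 1 its 9 regions had a lowest value of 1.06 TPM in sector 8, a median of 16.7 and a highest value of 1641 in sector 4. In section 2 its 7 regions went from 1.26 TPM in sector 3 through a median of 8.72 to 954 in sector 4. Single regions within sections 1 and 2 thus differed far more than the medians of those sections did. In section 3 the 3 sectors stood at 0, 518 and 514 TPM. In section 4 the 6 regions ran from 0 in sector 6 to 1486 TPM in sector 4, with a median of 115. In section 5 the 3 sectors stood at 5.15, 196 and 3380 TPM.

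Sections 6 and 7 looked different. Section 6 had HBZ at 0, 0.28, 0 and 0 TPM in its 4 sectors, and section 7 had 0, 378, 0 and 0. Sector 2 of section 7 was therefore the 1 region of the 8 with HBZ above 0.28 TPM, and its level lay among those of sections 1 to 5. HBZ was also concentrated within the embryo. The region with the most, sector 3 of section 5, held 27.6% of the HBZ TPM summed over the 36 regions, the top 5 regions held 71.3% and the top 10 held 91.7%. HBZ was at 100 TPM or more in 14 of 36 regions.

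**Figure D2:**
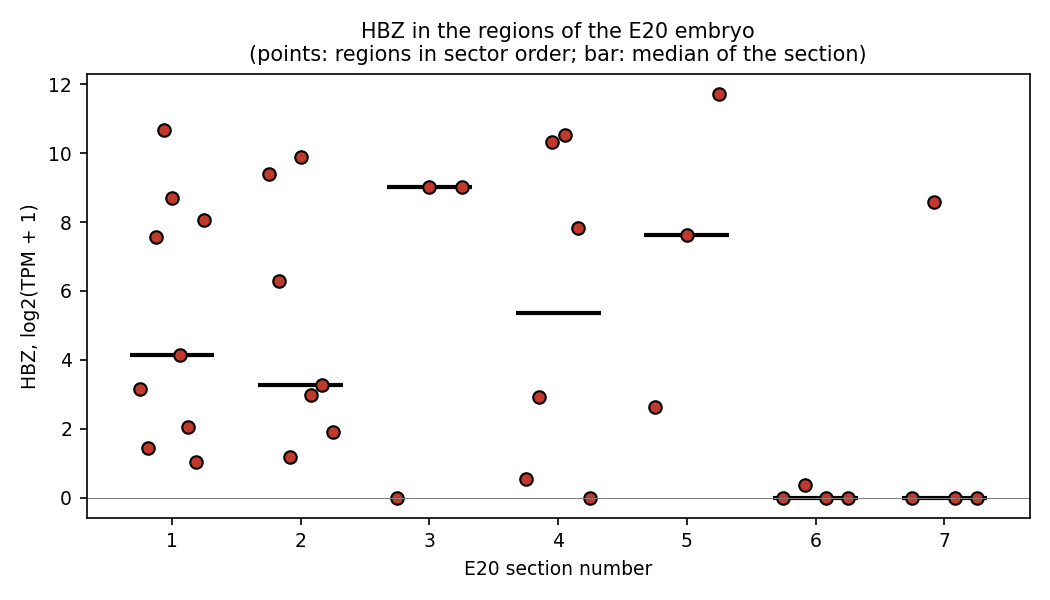
HBZ in the E20 embryo, as log2(TPM + 1) on the vertical axis and section on the horizontal axis, with 1 point per region in sector order and a bar at the section median. Medians are 16.7, 8.72, 514, 115 and 196 TPM in sections 1 to 5 and 0 in sections 6 and 7, with 1 high region in section 7.

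At E20, HBB and mostly HBM followed HBZ, and HBQ1 did so only in part. HBB encodes a beta-type chain, and HBM and HBQ1 are alpha-type relatives of HBZ. In the 13 regions of sections 1 to 5 with at least 100 TPM of HBZ, HBB was 1.91 to 4.51 times as high as HBZ, with a median of 3.53. Sector 3 of section 5 had 8361 TPM of HBB, 140 of HBM and 53.0 of HBQ1. Sector 4 of section 1 had 6327 TPM of HBB, 101 of HBM and 56.1 of HBQ1. In sector 2 of section 7 the order was the other way round, with HBB at 232 TPM and a ratio of 0.613 to HBZ, and HBM at 4.67 TPM. HBQ1 was listed at 0 in 6 of 7 regions of section 2 and in all 4 regions of section 7. HBM was listed at 0 in sector 3 of section 1, where HBZ was at 187 TPM. The handling of reads shared by near-identical globin copies is not given in the sources used here. HBB may hold reads of other beta-type genes and HBZ those of a near copy, which also touches their ratio. RefSeq places 7 genes from HBZ to HBQ1, of which 3 are rows of the table, and has no entry under the symbol HBB. Of the 14 globins on the list, 7 were in the table and the other 7 were not analysed here.

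HBB was less restricted than HBZ. It was at 1 TPM or more in 35 of 36 E20 regions and in 37 of 50 E18 regions. In E18 embryo 1 it was at that level in 9 of 15 regions, with a median of 1.20 TPM and a highest value of 92.9 in sector 5 of section 3. That region had no HBZ, and its lymphoid marker genes summed to 3258 TPM against at most 103 in any other region. Its macrophage list summed to 403 TPM, the highest of the 86 regions, its decidual and trophoblast list to 2041 and its yolk sac endoderm list to 6078. The part of those cells in its HBB was not tested. In E18 embryo 2, HBB was at 1 TPM or more in 28 of 35 regions, with a median of 4.25 TPM and a highest value of 16.8. The 2 regions of E20 sections 1 to 5 with HBZ at 0 held HBB all the same, at 37.7 TPM in sector 1 of section 3 and 124 in sector 6 of section 4.

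**Figure D3:**
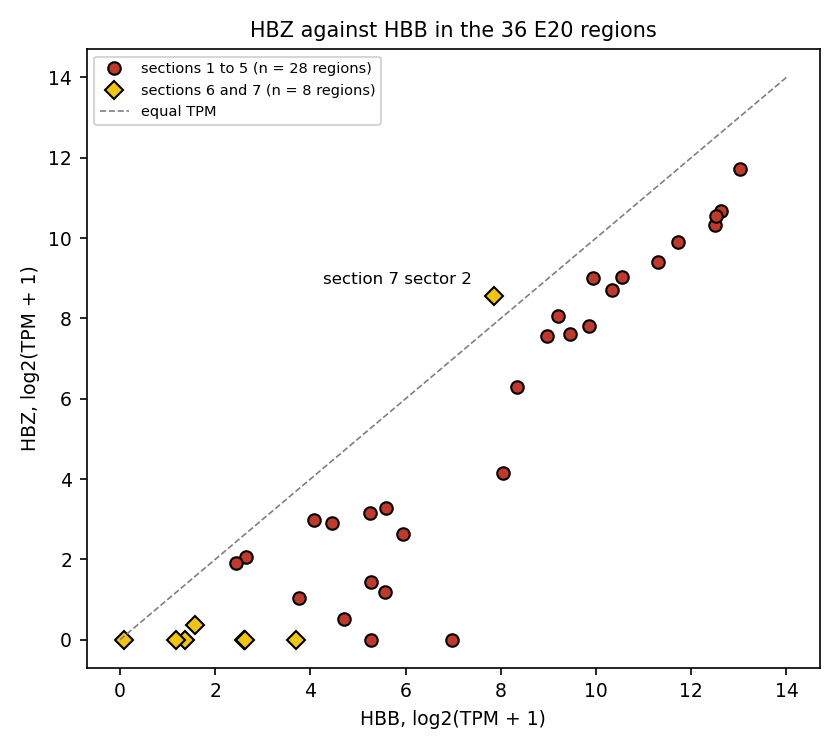
HBB (horizontal) and HBZ (vertical) in the 36 E20 regions, as log2(TPM + 1), with sections 1 to 5 as circles, sections 6 and 7 as diamonds and a dashed line at equal TPM. The HBZ-rich regions of sections 1 to 5 lie under the line, with HBB 1.91 to 4.51 times HBZ, and sector 2 of section 7 lies above it.

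Genes of red cell maturation were also found in the E20 regions richest in HBZ. AHSP, which stabilises free alpha-globin, stood at 136 TPM in sector 3 of section 5, 103 in sector 4 of section 1, 62.1 in sector 3 of section 4 and 65.5 in sector 4 of section 4. ALAS2, the erythroid enzyme that starts haem synthesis, was at 118, 30.2, 91.3 and 51.5 TPM in those 4 regions. GFI1B, a transcriptional repressor that acts within the erythroid and megakaryocyte lines, was at 15.2, 16.6, 8.30 and 3.75 TPM. ALAS2 was not confined to globin-rich regions. It was at 1 TPM or more in 24 of 50 E18 regions, up to 50.0 in section 3 of E18 embryo 1, where HBZ was at 0. The highest E18 values of AHSP and GFI1B were 5.82 and 3.96 TPM. Sector 2 of section 7 had 15.1 TPM of ALAS2 with AHSP, HEMGN and GFI1B listed at 0. Its yolk sac endoderm genes summed to 30.5 TPM, its epiblast genes to 662 and its mesenchyme genes to 1298.

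GATA1, the zinc-finger factor of red cells and megakaryocytes, was found in few regions. It was listed at 0 in 15 of 15 regions of E18 embryo 1. In E18 embryo 2 it was at 1 TPM or more in 11 of 35 regions, with a highest value of 10.5 in sector 2 of section 1, where HBZ was at 0. At E20 it was at that level in 12 of 36 regions and listed at 0 in 23. Its 3 highest regions there were sector 3 of section 5 with 43.7 TPM, sector 4 of section 1 with 34.2 and sector 3 of section 4 with 25.6, which were also among the 4 regions with the most HBZ. Of the 12 E20 regions, 11 held HBZ, and sector 6 of section 4 had 3.08 TPM of GATA1 with HBZ at 0.

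TAL1, the basic helix-loop-helix factor of blood and endothelial progenitors, was present at both stages. It had a median of 0 TPM in E18 embryo 1, with a highest value of 5.68 in sector 4 of section 4. E18 embryo 2 had a median of 1.03 TPM and a highest value of 30.9, in sector 7 of section 6. In the E20 embryo the median was 1.00 TPM and the highest value 40.5, in sector 5 of section 2. The ranges overlapped between all 3 embryos.

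The regions richest in TAL1 were of different kinds. Sector 7 of section 6 of E18 embryo 2 had HBZ at 0, and sector 5 of section 2 of the E20 embryo had HBZ at only 6.83 TPM. The latter held genes of endothelial cells, with the VEGF receptor KDR at 210 TPM, the angiopoietin receptor TEK at 168, PECAM1 at 71.4 and CD34 at 27.4. Sector 1 of section 2 held both sides, with TAL1 at 31.3 TPM, HBZ at 672, KDR at 149 and TEK at 271. Sector 4 of section 1 held globin without TAL1, with HBZ at 1641 TPM, GATA1 at 34.2 and TAL1 at 0.45.

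**Figure D4:**
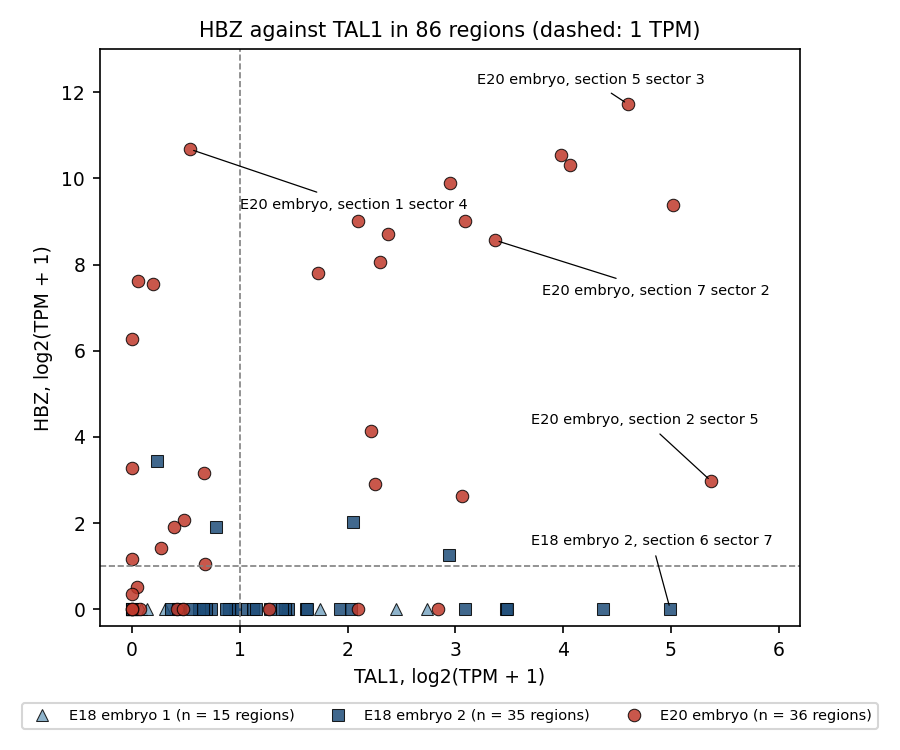
TAL1 (horizontal) and HBZ (vertical) in 86 regions, as log2(TPM + 1), with embryos by colour and shape and dashed lines at 1 TPM. The E18 regions spread along the bottom, up to 30.9 TPM of TAL1 with HBZ at 0, and the E20 regions lie on all sides of both dashed lines.

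LMO2, the adaptor of the complex, was the most widely found of the 5 factors in E20 tissue. Its median was 0 TPM in E18 embryo 1, with a highest value of 12.8 in sector 2 of section 4. In E18 embryo 2 the median was 2.16 TPM and the highest value 22.7, in sector 4 of section 1. In the E20 embryo the median was 6.38 TPM and the highest value 84.5, in sector 3 of section 5. In sections 1 to 5 of that embryo its median of 12.4 TPM stood beside 1.96 in sections 6 and 7. Sector 3 of section 2 was an exception among the LMO2-rich regions, with 68.2 TPM beside HBZ at 1.26 and TAL1 and GATA1 at 0.

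RUNX1, the factor of definitive blood, was low everywhere. It reached 0.549 TPM at most in E18 embryo 1, and its maximum was 9.54 for E18 embryo 2 and 3.56 at E20. It was at 1 TPM or more in 11 of 35 regions of E18 embryo 2 and in 7 of 36 E20 regions. The 4 highest values of E18 embryo 2 lay in sectors 4 and 5: 9.54 TPM in sector 4 of section 3, 6.92 in sector 4 of the 7 in section 5, 5.13 in sector 5 of section 3 and 4.71 in sector 5 of section 2. At E20 it reached 3.56 TPM both in the HBZ-rich sector 3 of section 5 and in sector 4 of section 7, where HBZ was at 0.

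ETV2, the early ETS factor, had its lowest median in the E20 embryo. It was at 1 TPM or more in 11 of 15 regions of E18 embryo 1, with a median of 1.53 TPM and a highest value of 16.4 in sector 4 of section 3. E18 embryo 2 had it at that level in 24 of 35 regions, with a median of 2.87 TPM and a highest value of 60.02 in sector 7 of section 6. In the E20 embryo it was at that level in 12 of 36 regions, with a median of 0 and a highest value of 11.5 in sector 5 of section 2, the region with the most TAL1. In sections 6 and 7 it was at that level in 5 of 8 regions with a median of 1.69 TPM, and in sections 1 to 5 in 7 of 28. The region with the most ETV2 at E18 was again the one with the most TAL1 there.

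Within E18 embryo 2, TAL1 and LMO2 peaked in the same region of most sections, ETV2 in part, and RUNX1 and GATA1 mostly elsewhere. TAL1 was highest at 6.67 TPM in sector 4 of section 1, and at 7.49, 10.1 and 10.2 TPM in sector 5 of sections 2, 3 and 4. It was highest at 19.6 TPM in sector 5 of section 5, where the next region had 2.06, and at 30.9 TPM in sector 7 of section 6, where the next had 2.09. LMO2 was highest in the same region as TAL1 in 5 of 6 sections, at 22.7, 11.3, 15.9, 16.0 and 10.7 TPM in sections 1, 2, 3, 5 and 6. In section 4 the LMO2 values of sectors 4 and 5 were 8.18 and 7.59 TPM. ETV2 peaked with TAL1 in sections 1, 3, 5 and 6, at 2.51, 11.1, 8.12 and 60.02 TPM. RUNX1 was listed at 0 in sector 7 of section 6 and at 0.33 TPM in sector 5 of section 5, and it shared the TAL1 peak only in section 2. GATA1 was highest in sector 2 of sections 1 to 4, sector 6 of section 5 and sector 3 of section 6, never in the region of the TAL1 peak.

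Those TAL1 peak regions had high sums of endothelial, mesenchyme and amnion genes and low sums of epiblast genes. A list of 22 endothelial genes other than TAL1 summed to 634 to 1270 TPM in the 6 regions where TAL1 peaked, against a median of 182 over the 35 regions. The mesenchyme list (such as COL1A1, HAND1 and POSTN) summed to 2054 to 8602 TPM there, against a median of 223, and the amnion list to 1199 to 5608 TPM, against a median of 211. The epiblast list (such as SOX2 and NANOG) summed to 42.3 to 106 TPM, against a median of 542. Regions with little TAL1 shared part of this. Sector 4 of section 5, with TAL1 at 0, had sums of 376 TPM endothelial, 1834 mesenchyme, 1636 amnion and 134 epiblast. Sector 8 of section 6, with TAL1 at 1.62 TPM, had 419, 1829, 1700 and 260. In sector 7 of section 6, KDR stood at 186 TPM, TEK at 84.6 and CD34 at 24.5. How far the mix of cells sets these peaks was not tested.

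**Figure D5:**
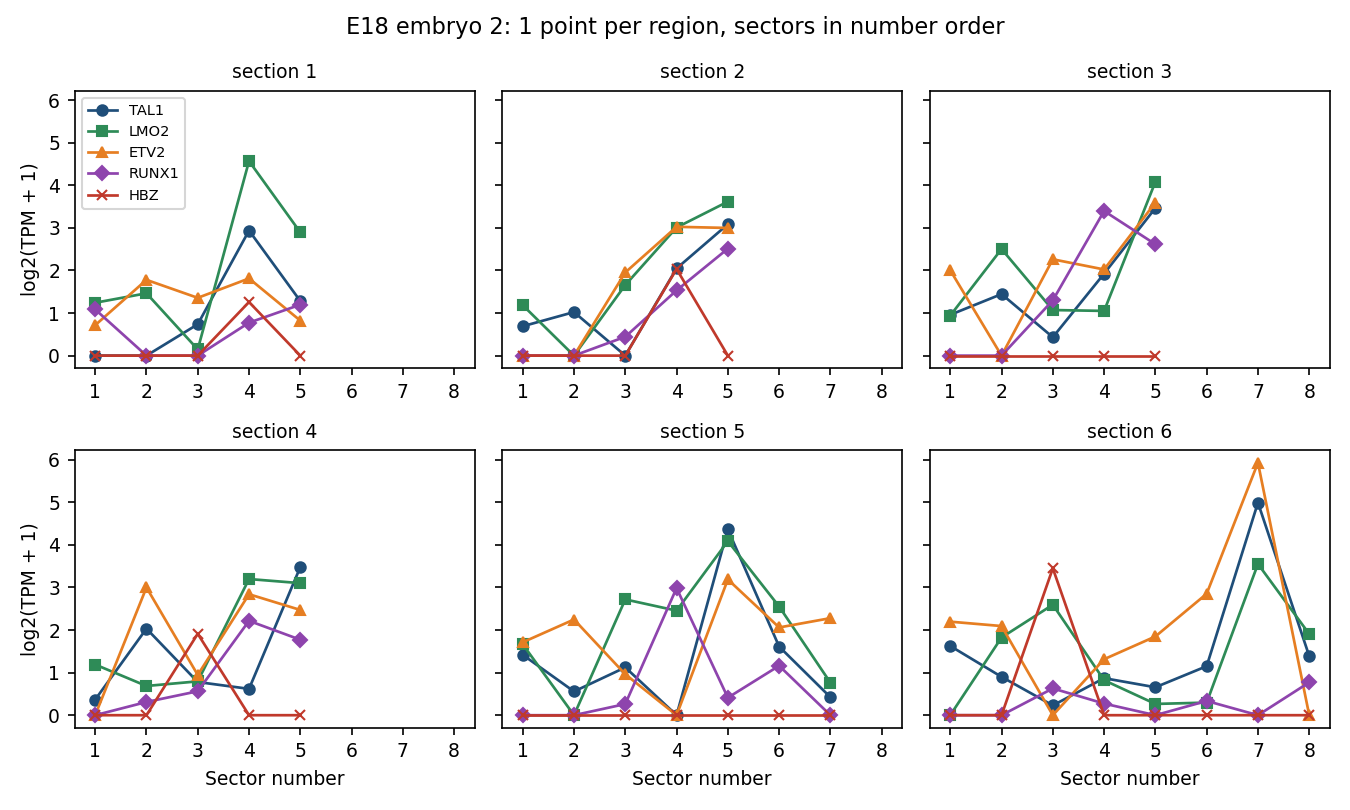
TAL1, LMO2, ETV2, RUNX1 and HBZ by sector in the 6 sections of E18 embryo 2, as log2(TPM + 1), with 1 panel per section and 1 line per gene. TAL1 and LMO2 peak in sectors 4 or 5 in sections 1 to 5 and in sector 7 of section 6, and HBZ is at 0 in 31 of the 35 regions.

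The first tested comparison asked which of the 6 genes differed between stages. HBZ was higher at E20, with 340 ± 681 TPM (SD, n = 36 regions) against 0 in all 15 regions of E18 embryo 1 and 0.491 ± 1.79 (n = 35 regions) in E18 embryo 2. On the log2(TPM + 1) scale, which understates changes of low genes, the embryo means were 4.52, 0 and 0.25. The difference was 4.40 ± 0.807 (SE), with an adjusted p of 4.64e-06 (limma, Benjamini-Hochberg over all genes tested, 1 E20 embryo against 2 E18 embryos). HBZ was the only 1 of the 6 genes called. Over all genes tested, 11.4% were called, 2.64% as higher and 8.75% as lower at E20. After quantile normalization 796 genes were higher and 679 lower, against 402 and 1332, and the median gene stood at -0.01 in place of -0.44.

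The 5 factors did not pass the test between stages. LMO2 averaged 16.7 ± 22.5 TPM at E20 (n = 36 regions) against 2.69 ± 4.47 (n = 15) and 4.35 ± 5.37 (n = 35) in the E18 embryos, a difference of 1.68 ± 0.759 with an adjusted p of 0.15. TAL1 averaged 5.33 ± 9.22 TPM against 0.972 ± 1.82 and 3.29 ± 6.22, a difference of 0.65 ± 0.825 with an adjusted p of 0.765. GATA1 differed by 0.68 ± 0.805 (adjusted p = 0.739) and RUNX1 by -0.04 ± 0.792 (adjusted p = 0.98). ETV2 had the lower mean at E20, 1.12 ± 2.14 TPM against 2.52 ± 3.99 and 4.68 ± 10.01, a difference of -0.87 ± 0.824 with an adjusted p of 0.633. After quantile normalization 4 of the 6 genes were called by the same limma test: HBZ, LMO2 at 2.15 (adjusted p = 0.00642), TAL1 at 1.38 (adjusted p = 0.0242) and GATA1 at 1.01 (adjusted p = 0.0118). With the median in place of the mean over regions, HBZ differed by 3.06 (limma, adjusted p = 0.374) and no gene of the table was called, with 2021 at an unadjusted p under 0.05. The E20 side is 1 embryo, so nothing here measures variation among E20 embryos, and stage and the yolk sac tissue of sections 1 to 5 cannot be told apart.

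The second comparison set E20 sections 1 to 5 against sections 6 and 7, a split that follows yolk sac endoderm genes in earlier results of these data. HBZ and LMO2 were higher in sections 1 to 5. The section means of HBZ, as log2(TPM + 1), were 5.20, 4.99, 6.01, 5.35 and 7.32 in sections 1 to 5, and 0.09 and 2.14 in sections 6 and 7. The difference was 4.66 ± 0.752 (SE), with an adjusted p of 0.00383 (limma on section means). The section means of LMO2 were 3.05, 3.37, 3.74, 4.17 and 4.25 against 1.82 and 1.32, a difference of 2.15 ± 0.402 with an adjusted p of 0.00684. The means of the 2 sets of sections did not overlap for either gene, although single regions did. The share of all genes tested that did the same was not counted, so this does not set the 2 genes apart. The calls were 2 of 6 genes, both higher, beside 32.1% of all genes tested, 8.46% called higher and 23.7% lower. Quantile normalization gave 2003 higher and 2666 lower, against 1288 and 3603.

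TAL1 and ETV2 narrowly missed the threshold, with differences of opposite sign. The section means of TAL1 were 1.08, 1.96, 2.43, 2.48 and 2.57 against 0.54 and 0.86, a difference of 1.41 ± 0.459 (SE) with an adjusted p of 0.0525 (limma). The section means of ETV2 were 0.64, 0.91, 0.09, 0.25 and 0.42 against 1.59 and 0.98, a difference of -0.82 ± 0.266 with an adjusted p of 0.0509. Their section means did not overlap either, and the share of all genes with such means was not counted. GATA1 differed by 1.10 ± 0.573 (adjusted p = 0.188) and RUNX1 by 0.04 ± 0.305 (adjusted p = 0.944). Sector 2 of section 7, the 1 globin-rich region of the second set, was also left out, a choice made after seeing these values. It held the most TAL1 of the second set, so leaving it out could only raise the TAL1 difference. Its ETV2, 0.51 on the log2 scale, lay under the section 7 mean of 0.98, so the ETV2 difference could only widen too. TAL1 then differed by 1.82 (limma, adjusted p = 0.0219) and ETV2 by -0.90 (limma, adjusted p = 0.0312). With that, 4 of 6 genes were called, beside 4947 of 15216 genes tested, which is no independent support for TAL1 or ETV2. Without section 7 as a whole, LMO2 differed by 1.90 (limma, adjusted p = 0.0684) and HBZ was the 1 gene of the 6 called. All 7 sections came from 1 embryo, so the test speaks of sections and its p-values are too small for a statement about embryos.

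Several sums of marker genes of other cells differed across this split as well. The macrophage, amnion and decidual lists had calls in both directions. Of all genes tested, 8.46% were called higher in sections 1 to 5 and 23.7% lower. Counts near those shares are not results about a list. Endothelial genes summed to 184 to 1237 TPM in regions of sections 1 to 5 and to 54.6 to 249 in sections 6 and 7. The mesenchyme list summed to 559 to 12572 TPM against 44.1 to 4379, and the epiblast list to 3.21 to 65.4 against 33.1 to 985. The macrophage list summed to 26.9 to 300 TPM against 12.6 to 31.8, with 4 of 16 genes higher and 3 lower. LYVE1, MRC1, CD14 and PTPRC were higher, and CD68, C1QB and CSF1R lower. C1QA, C1QB and C1QC were listed at 0 in all 28 regions of sections 1 to 5. The primitive streak list summed to 0 to 50.4 TPM against 38.3 to 2990, with 14 of its 15 genes lower. The amnion list, with 7 of 10 genes lower and 1 higher, summed to 255 to 1944 TPM against 24.98 to 4640. The decidual and trophoblast list, with 3 of 11 genes higher and 4 lower, summed to 202 to 1752 TPM against 33.1 to 867. The part of these cells in the differences was not tested. Within sections 1 to 5, HBZ did not follow the yolk sac endoderm sum: Pearson's r was -0.0079 over 28 regions that share 1 embryo, 0.123 with mesenchyme and 0.0197 with the endothelial sum. LMO2 had an r of 0.62 with the endothelial sum over the same 28 regions, and TAL1 had 0.441.

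Along the numbered sectors of a section, 1 of the 6 genes passed the test. RUNX1 rose with sector number, by 0.87 ± 0.205 (SE) on the log2 scale from the first to the last sector of a section, with an adjusted p of 0.00999 (limma over 86 regions, section as a block). All genes tested were called at 3.24%, with 2.48% rising and 0.762% falling, and after quantile normalization 405 rose and 319 fell, against 377 and 116. ETV2 had a slope of 1.05 ± 0.327 with an adjusted p of 0.0567, LMO2 1.02 ± 0.411 with 0.161 and TAL1 0.97 ± 0.406 with 0.182. HBZ had a slope of 0.42 (adjusted p = 0.844) and GATA1 of -0.08 (adjusted p = 0.942). The factor slopes were steepest in E18 embryo 2, at 1.94 for LMO2, 1.77 for TAL1, 1.53 for ETV2 and 1.48 for RUNX1. In E18 embryo 1 they were 0.62, 0.68, 1.43 and 0.03, and in the E20 embryo 0.38, 0.38, 0.42 and 0.72.

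The RUNX1 call was not stable. Its slope was 0.50 without E18 embryo 2 (limma, adjusted p = 0.617), 0.98 without the E20 embryo (limma, adjusted p = 0.0568) and 0.47 after quantile normalization (limma, adjusted p = 0.163). Without E18 embryo 2 no gene of the table was called by limma, and 1116 had an unadjusted p under 0.05. A difference between the embryos' slopes was tested for each gene: the lowest adjusted p was 0.304 for RUNX1 along sectors and 0.178 for LMO2 along sections (limma). Regions of an embryo are not independent, so p-values over regions are too small.

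No member differed along or between sections by the other tests. Along section number 0 of 6 genes were called by limma, with 0 at an unadjusted p under 0.05, beside 10.7% of all genes tested. HBZ had a slope of -1.33 (adjusted p = 0.291), which was -3.30 in the E20 embryo and 0 and 0.04 in the E18 embryos. LMO2 had -0.32 (adjusted p = 0.723), with -1.24 in the E20 embryo, 2.07 in E18 embryo 1 and -0.46 in E18 embryo 2. Quantile normalization gave 852 rising and 500 falling genes, against 1341 and 287. Between the 7 E20 sections in any order, 0 of 6 genes were called by limma's F test, with 0 at an unadjusted p under 0.05, beside 18.5% of all genes, and the lowest adjusted p was 0.225 for LMO2. Between the 6 sections of E18 embryo 2, 0 of 6 genes and 0% of all genes were called by limma's F test, with 345 genes at an unadjusted p under 0.05 and none of the 6 among them.

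Related genes were described through fixed lists. Of 7 globins tested, 2 were higher at E20 and none lower, HBB by 4.59 and HBZ, with a list median of 0.87 beside -0.44 for all genes. In E20 sections 1 to 5 against 6 and 7, 3 of 7 were higher, HBB by 5.56, HBZ, and HBM by 2.42, with a median of 1.04 beside -0.24 for all genes. All genes tested were called higher at 2.64% and 8.46% in these comparisons, in that order. Along sectors none of the 7 was called. HBZ and HBB thus passed both comparisons, which share the E20 regions.

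Most red cell genes did not pass. Of 31 erythroid genes, 1 was higher at E20, CA2, a carbonic anhydrase, by 2.19, and 1 was lower. Of all genes tested, 2.64% were called higher and 8.75% lower there. Between the E20 section sets 3 were higher, CA2 by 3.21, the globin chaperone AHSP by 2.49 and the haem enzyme CPOX by 1.70. Lower were 2, among them the erythropoietin receptor EPOR at -1.65. The shares of all genes tested were 8.46% higher and 23.7% lower, so the calls of this list went both ways and were few. The list medians were -0.04 and 0.13, beside -0.44 and -0.24 for all genes.

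Called partners of TAL1, GATA1 and RUNX1 were mostly lower, as were the called genes of the whole table in both comparisons (8.75% lower and 2.64% higher between stages, 23.7% and 8.46% between the section sets). Of 15 tested, 0 were higher and 5 lower at E20, among them the LDB1-binding SSBP3 at -2.91, the inhibitor of helix-loop-helix factors ID1 at -2.65, GATA2 at -1.95 and ID3 at -1.88. Between the E20 section sets 1 was higher, ID2 by 0.57, and 7 were lower, with ID1 at -2.83, SSBP3 at -2.70, the E-protein TCF3 at -2.47 and ID3 at -2.28. The list medians were -0.82 and -0.75, beside -0.44 and -0.24 for all genes. GATA2 lost its call between stages, and ID2 between the section sets, after quantile normalization. Most of these genes are also active outside blood.

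Several other blood regulators and vessel genes were higher in E20 sections 1 to 5, a comparison in which 8.46% of all genes were called higher and 23.7% lower. Of 16 further haematopoietic regulators, 4 were higher there than in sections 6 and 7, the ETS factors FLI1 by 3.12 and ERG by 2.05, HLF by 1.86 and IKZF1 by 0.66, and BCL11A was lower at -1.97. Of 13 growth factors and receptors, KDR was higher by 3.81 and CSF1 by 1.46, and EPOR and CSF1R were lower. Of 23 endothelial genes (a list that holds TAL1 itself), 9 were higher, with TEK by 3.48, PECAM1 by 3.44 and ESAM by 3.39, and 3 were lower, SOX17 at -1.57, EGFL7 at -1.28 and SOX18 at -1.09. The calls of CSF1R and SOX18 were lost after quantile normalization. Between stages, 3 endothelial genes were higher at E20, TEK by 3.11, RAMP2 by 2.64 and KDR by 1.73, and SOX17 at -2.04 and EGFL7 at -1.63 were lower. The last 2 lost their call after quantile normalization.

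Along sectors, endothelial genes were the list with the most calls among the blood and vessel lists. Of 23, 14 rose and none fell, with CD34 at 2.28, RAMP2 at 2.23 and SOX7 at 2.06, and the list median was 1.22 beside 0.07 for all genes. Of the haematopoietic regulators, MEIS1 rose by 2.87, FLI1 by 1.79 and ERG by 1.46. Of the growth factors and receptors, KDR rose by 1.36 and CSF2RB by 0.56. No globin, erythroid gene or partner was called. Over all genes tested, 2.48% rose and 0.762% fell. The mesenchyme list rose for 8 of 15 genes, the amnion list for 4 of 10, and the epiblast list fell for 4 of 10. All these calls were lost without E18 embryo 2, and that of CSF2RB after quantile normalization.

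The genes most like each member differed between members. Over the 36 E20 regions, which share 1 embryo and their unknown depths, HBZ was most like HBB (Pearson's r = 0.931 of log2 values), AHSP (0.891), HBM (0.845), HEMGN (0.729) and RHAG (0.723). Among the genes most like GATA1 were TEC (0.825), TMOD1 (0.798), GFI1B (0.734) and LYL1 (0.732). TAL1 was most like MMRN1 (0.678), LAPTM5 (0.658), CD34 (0.651), CD109 (0.639) and PCDH12 (0.633). LMO2 was most like FLI1 (0.759), ESAM (0.755), GMFG (0.722), CRACD (0.718) and KDR (0.704). The list of HBZ thus holds globin and red cell genes, and that of LMO2 holds endothelial genes. RUNX1 and ETV2 had sparse values, with WT1 (0.729) and CALCA (0.735) as their nearest genes.

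Over the 50 E18 regions, after each embryo's mean was subtracted, the nearest genes were others. TAL1 was most like TBX4 (0.758), HOXB9 (0.755), HOXA11 (0.732), VEGFC (0.729) and FAM221A (0.726). LMO2 was most like KANK3 (0.72), DPP4 (0.718), PON3 (0.689), ERG (0.679) and NLRP2 (0.677). RUNX1 was most like ATP10B (0.761), COL7A1 (0.71) and PRSS27 (0.709), and ETV2 like GSTM5 (0.673), CFL2 (0.631) and FZD10 (0.619). HBZ and GATA1 were at 0 in most E18 regions, and their highest r values there were 0.565 and 0.467.

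The members themselves were related differently at the 2 stages. Over the 36 E20 regions the pairs with the highest r were LMO2 with GATA1 (0.692), HBZ with GATA1 (0.609), TAL1 with LMO2 (0.606), HBZ with TAL1 (0.544) and TAL1 with GATA1 (0.519), all within the complex or its globin. HBZ and ETV2 had an r of -0.179. Over the 50 E18 regions they were TAL1 with ETV2 (0.555), TAL1 with LMO2 (0.496) and LMO2 with RUNX1 (0.371). In the 35 regions of E18 embryo 2, LMO2 had an r of 0.76 with the endothelial sum, 0.684 with mesenchyme, 0.705 with amnion and -0.708 with epiblast. For TAL1 the same values were 0.71, 0.641, 0.638 and -0.715, and for RUNX1 0.554, 0.647, 0.637 and -0.69. GATA1 had the opposite signs there, -0.286, -0.252, -0.238 and 0.195. These are descriptions over regions that share embryos, sections and capture, with no test, and the difference between stages was not tested.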

How the data were processed

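Polyadenylated RNA of 86 laser-captured regions of 3 embryos was measured. The authors deposited 1 table of TPM values for 17023 genes. Per the submitters' processing notes, fastp, HISAT2 and StringTie were used, without versions, and the genome build is not given in the sources used here. TPM summed to 495547 to 777987 per region over the table. No count, depth or precision per value can be had from it, and 0 columns of other series were present. Columns were matched to regions by the labels of stage, embryo, section and sector.

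Values were taken as log2(TPM + 1). Genes at 1 TPM or more in 10 or more regions were tested with limma 3.58.1 in R 4.3.3 (eBayes with a trend, two-sided, Benjamini-Hochberg over 15216 genes, threshold 0.05). The stage was tested on embryo means (with 1 residual degree of freedom, pooled over genes), the E20 section sets on section means, and the trends on regions, with section or sector number scaled from 0 to 1 and embryo or section as a block. The nearest genes are the 5 with the highest Pearson's r. From each list, up to 4 called genes per direction were open to naming, and a few such genes are not reported here. Python 3.11.15, numpy 2.4.6, pandas 2.3.3 and matplotlib 3.10.9 were used for the rest, and the fits were tested on simulated data. Gene symbols of all 6 members and of 15335 of 17023 genes matched RefSeq (T2T-MFA8v1.1). Its coordinates were used only to count the genes from HBZ to HBQ1.

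Tried as alternatives were a filter of 5 TPM in 20 regions, no filter, a pseudocount of 0.1, quantile normalization, removal of the 13 mitochondrially encoded genes, medians over regions, section means, single regions, genes detected per region as a covariate, and leaving out each embryo or section. Regions were also classed at 0.5, 5 and 10 TPM. Added after seeing the data were leaving out sector 2 of E20 section 7 or sector 7 of section 6 of E18 embryo 2. The 6 genes, the lists and the E20 split were chosen with earlier results of these data known.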

Additional observations from a re-analysis of the deposited data

Results flagged for a closer look

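Within sections of 4 to 10 regions, 72 groups of values of 1 gene were examined on the log2 scale for a region standing apart from the others by Dixon's criterion, and 19 had one at 1 TPM or more. Chance gives about 1 in 20 groups of normally spread values. In 12 of the 19 groups all other regions were at 0, where any value stands apart whatever its level, so that rate is no chance level for them. HBZ and TAL1 gave 5 each, RUNX1 4, GATA1 3, LMO2 2 and ETV2 0, and in all of them the region was the highest of its section.

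In E18 embryo 1 these were TAL1 at 1.69 TPM in sector 4 of section 3, LMO2 at 2.61 in sector 5 of section 3 and TAL1 at 5.68 in sector 4 of section 4. In E18 embryo 2, HBZ stood apart at 1.39 TPM in sector 4 of section 1, at 3.10 in sector 4 of section 2, at 2.76 in sector 3 of section 4 and at 9.93 in sector 3 of section 6. In the same embryo TAL1 stood apart at 19.6 TPM in sector 5 of section 5 and at 30.9 in sector 7 of section 6, GATA1 at 10.5 in sector 2 of section 1 and RUNX1 at 6.92 in sector 4 of section 5.

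In the E20 embryo, sector 2 of section 7 stood apart for 3 genes, HBZ at 378 TPM, TAL1 at 9.33 and GATA1 at 1.89. GATA1 stood apart at 7.65 TPM in sector 1 of section 2 and RUNX1 at 1.80 in sector 6 of section 4. In sector 4 of section 6, LMO2 at 5.99 TPM and RUNX1 at 1.70 both did, and in sector 4 of section 7 RUNX1 did at 3.56.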

How the results depend on the processing

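Among alternatives of the main results, 93 kept the call or count, 15 lost the call or fell in count, 7 gained a call or rose in count and 3 moved. For single genes 944 kept it, 165 lost it, 14 gained it, 17 moved and 19 changed sign. The cause of the changes below was not tested. Members called between stages numbered 4 after quantile normalization and 0 with medians over regions, and all genes called there numbered 885 without mitochondrially encoded genes and 0 with medians. Along sectors all genes called numbered 253 with a pseudocount of 0.1. Members called there numbered 0 after quantile normalization, 0 under the stricter filter, which tested only HBZ and LMO2, and 2 without mitochondrially encoded genes. Quantile normalization called 1 member between the 7 E20 sections. Between the E20 section sets 4 members were called with a pseudocount of 0.1, 4 after quantile normalization and 4 without sector 2 of section 7. With genes detected per region as a covariate, 502 genes were called along sections and 1163 between E20 sections. HBZ was held by 16 regions at 10 TPM, and factors alone by 25 at 5 TPM and 16 at 10 TPM.

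Leaving out each embryo gave 9 (without E20) to 2411 genes along sections, and 0 (without E18 embryo 2) to 1129 genes and 0 to 1 members along sectors. Leaving out each section gave 2727 (without section 7) to 4761 genes and 1 (without section 7) to 3 members between the E20 section sets, and 3025 genes without section 6. HBZ between those sets ranged from 3.63 to 6.88 (limma, adjusted p from 6.18e-05 to 0.0473).

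The following changed sign. For the stage, RUNX1 was 0.40 after quantile normalization and 0.049 with section means, and GATA1 was -0.16 with medians. Along sections, GATA1 was 0.0324 with a pseudocount of 0.1, and RUNX1 was -0.0369 after quantile normalization, -0.0021 without mitochondrially encoded genes and -0.0949 with the covariate. Leaving out 1 embryo at a time, the section slopes ranged from -2.28 to 0.0253 (without E20) for HBZ, -0.23 to 0.16 (without E20) for TAL1, -0.85 to 0.32 (without E20) for LMO2, and -0.0459 (without E20) to 1.44 for ID3. That of RUNX1 was -0.32 without E20 and -0.0076 without E18 embryo 1, and that of TAL1 0.0022 without E18 embryo 1. Along sectors GATA1 ranged from -0.42 to 0.27 (without E18 embryo 2). Between the E20 section sets RUNX1 was -0.11 over single regions, from -0.16 (without section 5) to 0.14 with 1 section left out, -0.06 without section 6 and -0.0457 without sector 2 of section 7. No paired analysis was possible because the stages share only embryo number 1, which names different animals. Leaving out an E18 embryo leaves the stage difference of HBZ at 4.28 or 4.52 with no test.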
